A study of Homo sapiens with 3 samples.

Results

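Fc receptors bind the constant part of antibodies, and TREM receptors recognise lipids, lipoproteins and other ligands on the surface of myeloid cells. The 10 genes described here encode 4 receptors for IgG (FCGR1A, FCGR2A, FCGR2B and FCGR3A), the antibody-binding chain of the IgE receptor (FCER1A), the neonatal IgG receptor (FCGRT), 2 adaptor chains (FCER1G and TYROBP) and 2 TREM receptors (TREM1 and TREM2). They were chosen by name, as a family, from 20037 protein-coding gene records of the human genome. For each gene, every peak that overlapped the record or the 50 kb on either side was taken, and this stretch is called the window of the gene.

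The peaks came from THP1, a human monocytic leukaemia cell line labelled wild type, after 24 h with PMA. This phorbol ester brings the cells towards a macrophage-like state. Chromatin of treated cells was immunoprecipitated with the Abcam antibody ab4729 against histone H3 acetylated at lysine 27 (H3K27ac) in 1 library and with the CST antibody 8469S against the deacetylase SIRT1 in 1 library. An input sample was not analysed here and no untreated cells were compared, so no effect of PMA can be read from these values.

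Most activating Fc receptors and the TREM receptors have tails that cannot signal by themselves. They pair with an adaptor chain, the Fc receptor gamma chain encoded by FCER1G or DAP12 encoded by TYROBP. SRC family kinases phosphorylate the ITAM motifs of these adaptors, which then recruit the kinase SYK. FCGR2B instead carries its own inhibitory ITIM motif, which recruits phosphatases. H3K27ac marks active promoters and enhancers, and SIRT1 is an NAD-dependent enzyme that removes acetyl groups from histones and other proteins.

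H3K27ac was found at 7 of the 10 genes. FCER1G, TYROBP, TREM1, FCGR1A, FCGRT, TREM2 and FCGR2A each had a peak within 1 kb of an end of the gene record, and FCGR2B, FCGR3A and FCER1A had none there. Both adaptor chain genes had higher values than the receptor genes, with folds over local background of 98.8 at FCER1G and 61.3 at TYROBP against 8.77 to 26.9 at the other 5. The share of all protein-coding genes with such a peak was 56.7%. At the transcription starts listed in RefSeq, 7 of 10 members had the mark, against 59.4% of the 15843 genes with a listed start. Over the record itself 7 members had it, against 62.4% of genes, and within the window 9 had it, against 83%. These counts are near the background shares.

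SIRT1 was found at a gene end of 1 of the 10, FCER1A, against 10.8% of all genes. It lay over the record of 2 (FCER1A and FCGR2B), against 50.7%, and in the window of 7, against 92.7%. FCGR2B at 31412 bp and FCER1A at 24628 bp have the longest records of the 10. The others are all shorter than the median record of all genes, 24115 bp. Record length was not matched, so no depletion of SIRT1 can be read from these counts. At a listed start SIRT1 was found for 0 of 10, against 5.11% of the genes with one. No member had both H3K27ac and SIRT1 at a gene end, a combination found at 4.37% of genes.

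**Figure D1:**
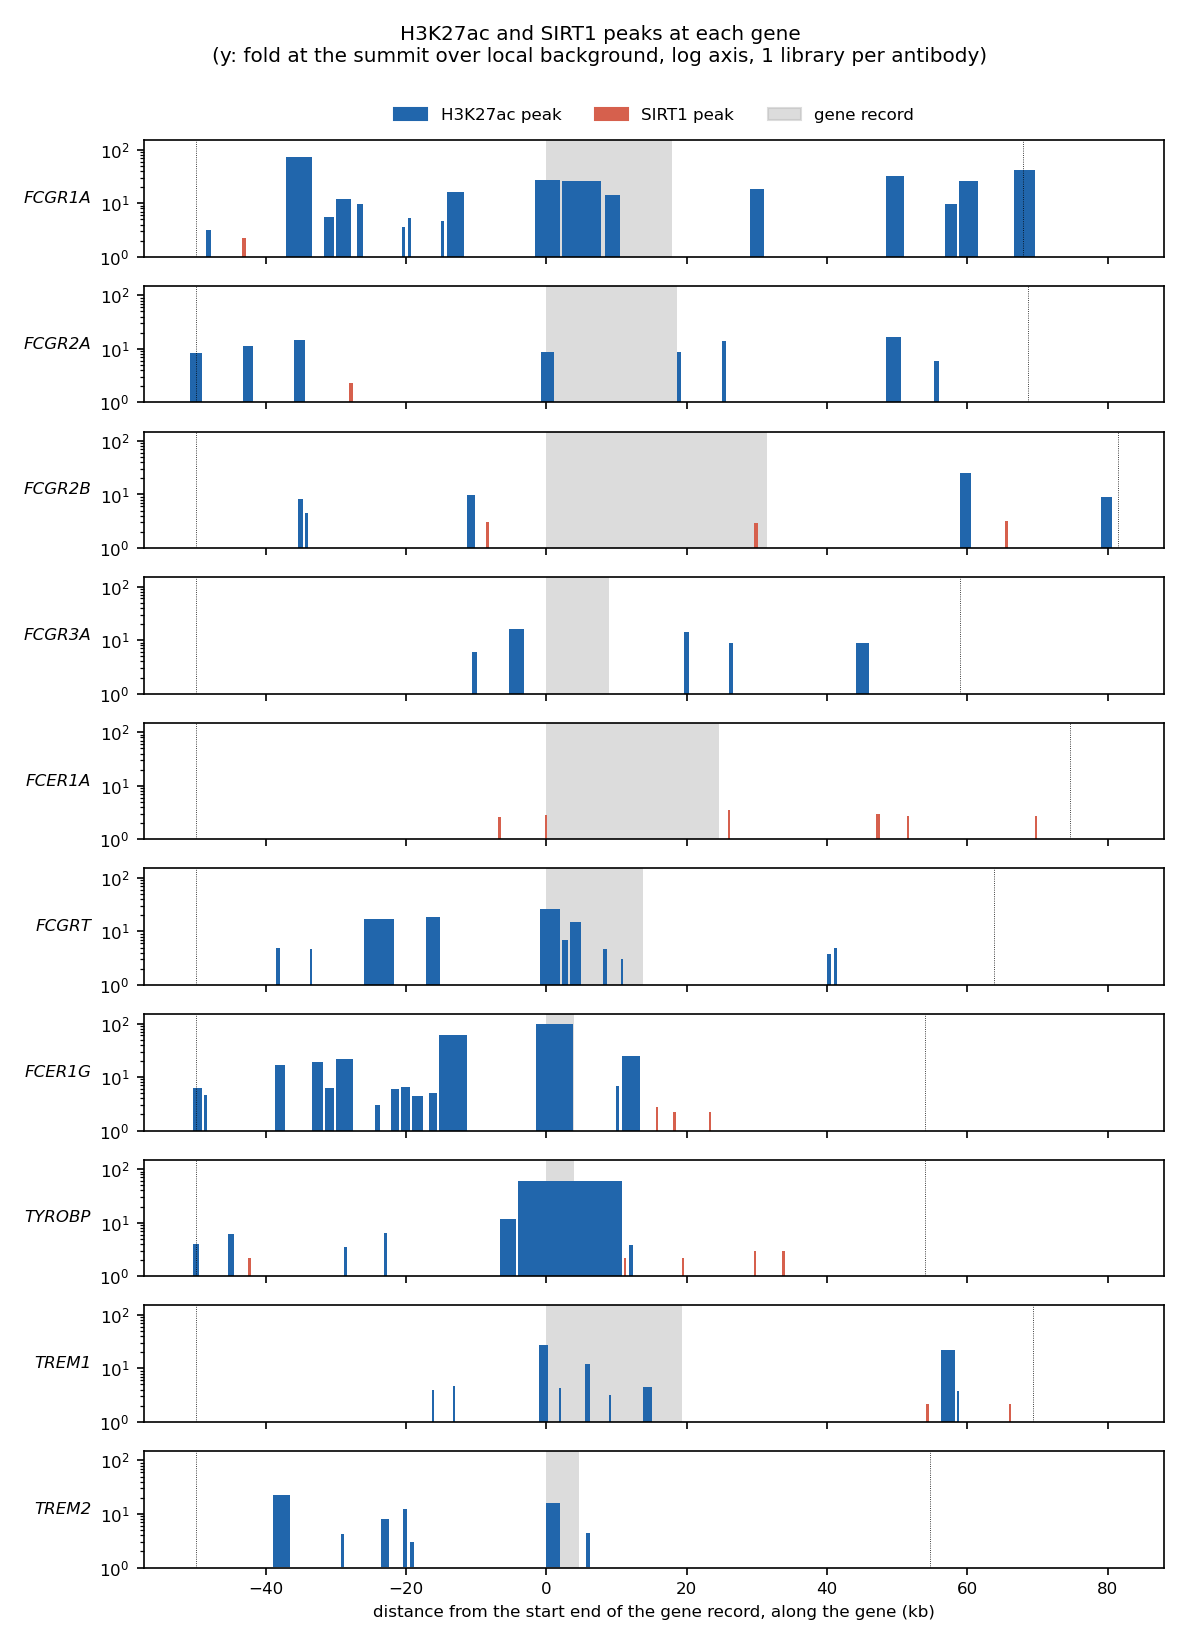
H3K27ac peaks (blue) and SIRT1 peaks (red) at each of the 10 genes, along the gene in kb from the start of its record (grey), with the fold at the summit on a log axis and dotted lines at the limits of the window. FCER1G reaches a fold of 98.8 and TYROBP lies inside a peak of 14874 bp, while the FCER1A window holds SIRT1 peaks and no H3K27ac peak.

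The authors called 50268 peaks for H3K27ac, 48735 of them on chromosomes 1 to 22, X and Y, and 96805 for SIRT1, with 95517 there. The fold of a peak, the authors' own value, is the height at its summit over the local background, and it was used within its own list. The number of sequenced fragments stacked at a summit, and the background rate beneath them, were recovered from the fold and the p-value of the peak. The median was 15 fragments for H3K27ac and 3 for SIRT1, and 84.4% of SIRT1 peaks rested on 2 or 3. The lowest −log10 q was 1.3 in the H3K27ac list and 0 in the SIRT1 list, where the lowest −log10 p was 2. The lists were thus not cut alike, and their peak numbers cannot be compared with each other. The lowest background rate of each list, 0.937 fragments for H3K27ac and 0.362 for SIRT1, is called its floor. With 1 library per antibody no value has a replicate and no p-value was computed across peaks or genes. The 95% exact Poisson intervals given after fragment numbers cover counting error only.

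The labelled cell type was checked against marker genes. Of 12 monocyte or macrophage markers, 9 had H3K27ac at a gene end, led by SPI1 at a fold of 109 (the transcription factor PU.1), ITGAX at 97 (the integrin chain CD11c) and CEBPB at 92.2. LYZ, CD163 and MRC1 had no peak there. None of the 12 mast cell or basophil markers had H3K27ac at a gene end, and 2 of 12 NK or T cell markers did, NKG7 at 15 and EOMES at 9.15. Among 12 B cell markers 4 did, led by FCRLA at 25.6, EBF1 at 14.7 and CD79A at 6.96. Among 12 microglia markers 2 did. In that order of lists the shares were 75%, 0%, 16.7%, 33.3% and 16.7%, beside 56.7% of all protein-coding genes. The 9 monocyte or macrophage markers fell to 5 when at least 50% of the peak had to lie inside the gene end window.

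The DNA just before the transcription start is printed for 6 genes, because the results turn on whether these starts were acetylated. FCER1G and TYROBP carried the 2 highest folds, FCGR1A and FCGR2A share a stretch of sequence, and the starts of FCGR2B and FCER1A had no H3K27ac. Each line gives the 250 bases before a start, 5′ to 3′ on the strand of the gene, from RefSeq on GRCh38.p14. Capitals mark GAGGAA on either strand, which reads TTCCTC on the other, the core of many binding sites of PU.1. The windows are chr1:161215045-161215294 (plus strand) for FCER1G, chr19:35908296-35908545 (minus strand) for TYROBP and chr1:149782444-149782693 (plus) for FCGR1A. They are chr1:161505207-161505456 (plus) for FCGR2A, chr1:161662893-161663142 (plus) for FCGR2B and chr1:159302086-159302335 (plus) for FCER1A.
FCER1G: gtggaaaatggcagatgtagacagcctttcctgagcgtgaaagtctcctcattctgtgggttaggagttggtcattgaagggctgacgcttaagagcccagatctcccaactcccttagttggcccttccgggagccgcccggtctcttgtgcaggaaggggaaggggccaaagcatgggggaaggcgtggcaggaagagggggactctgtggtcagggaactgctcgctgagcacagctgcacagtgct
TYROBP: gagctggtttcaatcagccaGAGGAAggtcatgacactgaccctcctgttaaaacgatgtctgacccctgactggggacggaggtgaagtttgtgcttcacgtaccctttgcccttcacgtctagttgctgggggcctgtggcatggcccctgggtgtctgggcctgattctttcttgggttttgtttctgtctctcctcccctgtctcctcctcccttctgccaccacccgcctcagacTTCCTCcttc
FCGR1A: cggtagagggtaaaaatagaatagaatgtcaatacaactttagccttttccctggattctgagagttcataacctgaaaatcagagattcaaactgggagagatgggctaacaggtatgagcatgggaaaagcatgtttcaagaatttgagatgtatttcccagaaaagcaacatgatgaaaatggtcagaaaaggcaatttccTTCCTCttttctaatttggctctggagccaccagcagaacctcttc
FCGR2A: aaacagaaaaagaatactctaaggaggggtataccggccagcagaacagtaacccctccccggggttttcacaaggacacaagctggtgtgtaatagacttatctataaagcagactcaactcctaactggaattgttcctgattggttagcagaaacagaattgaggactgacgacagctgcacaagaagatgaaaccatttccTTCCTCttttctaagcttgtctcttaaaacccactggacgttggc
FCGR2B, second listed start: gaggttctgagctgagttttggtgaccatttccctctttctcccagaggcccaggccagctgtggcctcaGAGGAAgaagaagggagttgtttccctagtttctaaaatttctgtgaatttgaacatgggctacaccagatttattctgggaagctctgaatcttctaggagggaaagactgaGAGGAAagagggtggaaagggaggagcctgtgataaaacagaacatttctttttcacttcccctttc
FCER1A: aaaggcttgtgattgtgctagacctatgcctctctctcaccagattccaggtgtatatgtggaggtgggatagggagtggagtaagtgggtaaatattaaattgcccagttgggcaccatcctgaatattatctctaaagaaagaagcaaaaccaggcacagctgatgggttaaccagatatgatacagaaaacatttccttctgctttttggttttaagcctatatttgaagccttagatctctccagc

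Among the IgG receptors, FCGR1A had the highest H3K27ac fold at its start. It encodes CD64, the high-affinity IgG receptor, which signals through the gamma chain, and lies at chr1:149782694-149800609 on the plus strand (gene ID 2209). A peak at chr1:149780999-149784601 covered the start with a fold of 26.8 and 78 fragments at the summit (61.7 to 97.3), 1417 bp into the gene. The next 2 peaks inside the record had folds of 25.7 and 14.4 on 77 and 48 fragments, and H3K27ac covered 53.9% of the record. The record overlaps those of the histone gene H2BC18 and of another protein-coding gene, so these peaks cannot be assigned to FCGR1A alone.

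The FCGR1A window held 17 H3K27ac peaks, a number that 4.91% of genes reached. The peak of highest fold in it was not at the gene: at chr1:149745519-149749232, 33462 bp upstream of the record, the fold was 72.6 on 156 fragments (132 to 182). The protein-coding record nearest to it was that of H2BC18, 33457 bp away. Downstream the window runs into a cluster of histone genes. There 5 peaks overlapped histone gene records, with folds of 18.6 at H2BC18 and H3C13, 32.3 at H4C14, 9.57 at H3C14, 26 at H2AC18 and 42.6 at H4C15 and H2AC19. The single SIRT1 peak of the window, 42887 bp from the record, had a fold of 2.2 on 2 fragments (0.242 to 7.22).

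FCGR2A had the lowest gene end fold of the 7 acetylated genes. It encodes CD32A, an IgG receptor with an ITAM in its own tail, and lies at chr1:161505457-161524048 on the plus strand (gene ID 2212). The peak over its start, chr1:161504696-161506588, had a fold of 8.77 on 22 fragments (13.8 to 33.3), with the summit 174 bp into the gene. Of the 11354 genes with H3K27ac at an end, 79.3% had a fold at least as high. A second peak, with a fold of 8.73 on 53 fragments, began 40 bp past the end of the record and overlapped the heat shock gene HSPA6. Although the folds were alike, the background was 1.73 floors under the first and 5.54 floors under the second.

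FCGR3A encodes CD16A, the IgG receptor of NK cells and of some monocytes and macrophages, and lies at chr1:161541759-161550737 on the minus strand (gene ID 2214). It had no H3K27ac over the record or within 1 kb of an end. The nearest peak, chr1:161553925-161556027, lay 3188 bp upstream of the record, with the summit 4140 bp before the start, a fold of 16.3 and 63 fragments (48.4 to 80.6). RefSeq lists 5 starts for FCGR3A, and none had a peak within 1 kb. The window held 5 H3K27ac peaks and no SIRT1 peak, and all 5 also lay in the FCGR2A window, which held 8.

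FCGR2B, the inhibitory IgG receptor CD32B, lies at chr1:161647243-161678654 on the plus strand (gene ID 2213) and likewise had no H3K27ac over the record or at either listed start. Its nearest H3K27ac peak was 10143 bp upstream at chr1:161635855-161637100, with a fold of 9.84 on 25 fragments (16.2 to 36.9). The peak of highest fold in the window overlapped FCRLA, an intracellular Fc receptor-like gene of B cells, with a fold of 25.6 on 68 fragments, 27485 bp from the FCGR2B record. A SIRT1 peak at chr1:161676767-161677359 lay inside the FCGR2B record with a fold of 2.92 on 3 fragments (0.619 to 8.77). The remaining 2 SIRT1 peaks of the window had folds of 3.01 and 3.17 on 4 fragments each.

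FCGR2A, FCGR2B and FCGR3A lie in a duplicated stretch of the long arm of chromosome 1, and FCGR1A too has near-identical copies. The labels do not say how reads that fit more than 1 copy were placed. FCGR3B, the neutrophil copy of FCGR3A, also had no H3K27ac over its record. Its upstream peak, the one that is nearest to FCGR2B, had its summit 4140 bp before the FCGR3B start, the same distance as at FCGR3A. The summits were 81226 bp apart and a corresponding pair of listed starts 81358 bp apart, and 282 of 300 bases around those starts, 94%, were identical. The fold was 16.3 on 63 fragments at FCGR3A and 9.84 on 25 at FCGR3B. FCGR2C, annotated as a transcribed pseudogene, had no peak within 10612 bp. The pseudogene copies of FCGR1A had gene end folds of 32.8 (FCGR1BP) and 27.3 (FCGR1CP), beside 26.8 at FCGR1A.

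Several H3K27ac peaks around FCGR2A, FCGR3A and FCGR2B lay at tRNA genes, which are short genes repeated many times in this stretch of chromosome 1. Of the 13 distinct peaks in the 3 windows, 6 lay within 500 bp of a tRNA gene, against 0.259% of all H3K27ac peaks. The 3 farthest upstream of FCGR2A overlapped TRG-TCC2-3, TRG-TCC2-4 and TRG-TCC2-5 and had 133, 148 and 147 fragments but folds of 8.25, 11.2 and 14.7. The background under them was 16.3, 13.2 and 9.69 floors, where the median of all H3K27ac peaks was 1.55. Under the other 3 near tRNA genes it was 5.54, 5.19 and 3.12 floors, and under the 7 away from them 1.73 to 3.12, so the ranges meet at 3.12. Over all 126 H3K27ac peaks near a tRNA gene the median background was 2.13 floors. The peak that began 40 bp past FCGR2A was 171 bp from TRG-GCC2-1. The part of read placement in these values was not tested.

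FCER1A differed from the other members in having no H3K27ac in its window at all. It encodes the alpha chain of the IgE receptor, which mast cells and basophils display, and lies at chr1:159283575-159308202 on the plus strand (gene ID 2205). The nearest H3K27ac peak was 180941 bp away, and 17% of all genes had no such peak in the window. The window held 6 SIRT1 peaks, a number that 30.6% of genes reached, where the median gene had 4. The peak at the end of the record, chr1:159283395-159283685, had a fold of 2.85 on 3 fragments (0.619 to 8.77). It lay at the beginning of the record but 18692 bp from the start that RefSeq lists, counted from its summit. The highest of the 6, chr1:159309424-159309798, had a fold of 3.53 on 4 fragments (1.09 to 10.2) and a −log10 q of 0.175, and 9.51% of all SIRT1 peaks had as high a fold.

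FCGRT encodes the heavy chain of the neonatal Fc receptor, which binds IgG inside the cell and returns it from endosomes to the surface. It lies at chr19:49512661-49526428 on the plus strand (gene ID 2217). A peak at chr19:49511805-49514638 covered its start with a fold of 25.7 on 58 fragments (44 to 75), and the summit lay 238 bp before the start. A further 4 peaks lay inside the record with folds of 6.87, 15.3, 4.63 and 3.04 on 17, 39, 8 and 5 fragments, in order from the start. H3K27ac covered 37.6% of the record, and the window held no SIRT1 peak.

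The adaptor gene FCER1G had the highest fold of the family. The gamma chain it encodes serves FCGR1A, FCGR3A and FCER1A, and the gene spans 3951 bp at chr1:161215295-161219245 on the plus strand (gene ID 2207). A single peak, chr1:161213756-161219116, covered 96.7% of it with a fold of 98.8, 258 fragments (227 to 291) and the summit 1433 bp into the gene. Of the 11354 genes with H3K27ac at an end, 108, or 0.951%, had a fold at least as high.

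FCER1G also lay in a long run of peaks. When peaks within 12.5 kb of each other were joined, 18 of them formed a domain of 77.2 kb at chr1:161151370-161228579, and 88 of 19489 domains, 0.452%, were as wide. The domain spans 9 protein-coding genes, so its width does not belong to FCER1G alone. The other domains over members were 59 kb with 12 peaks at FCGR1A, 31.4 kb with 7 peaks at TREM1, 18.9 kb with 3 peaks at TYROBP and 11.8 kb with 5 peaks at FCGRT. At TREM2 the domain was 6.26 kb and at FCGR2A it was the single peak of 1.89 kb. The FCER1G window held 3 SIRT1 peaks with folds of 2.79, 2.2 and 2.19 on 3, 2 and 2 fragments, all on the NR1I3 side, at least 11603 bp beyond the record.

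TYROBP lay within 1 wide block of acetylation. It encodes DAP12, the adaptor of TREM1, TREM2 and many NK cell receptors, and spans 3893 bp at chr19:35904403-35908295 on the minus strand (gene ID 7305). The peak chr19:35897463-35912336 was 14874 bp wide and covered 100% of the record, and 44 H3K27ac peaks, 0.0903% of the list, were as wide. Its summit, 1603 bp before the TYROBP start, had a fold of 61.3 on 127 fragments (106 to 151). The same peak overlapped HCST, which encodes the related adaptor DAP10, and NFKBID, an NF-kB regulator of the IkB family. The 61.3 is therefore shared by the 3 genes and is not a value of TYROBP alone. The window held 5 SIRT1 peaks with folds of 2.18 to 2.94 on 2 or 3 fragments, and the nearest was 7192 bp from the record and 252 bp from the wide block.

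The TREM receptors lie close together on chromosome 6. TREM1, which amplifies inflammatory signalling in monocytes and neutrophils, lies at chr6:41267385-41286682 on the minus strand (gene ID 54210). The peak at its start, chr6:41286474-41287733, had a fold of 26.9 on 87 fragments (69.7 to 107), with the summit 504 bp before the start. Inside the record were 4 more peaks with folds of 4.28, 11.8, 3.15 and 4.45 on 11, 32, 8 and 15 fragments, in order from the start. Of the 9 peaks in the window, the second highest, with a fold of 22.1, overlapped the neighbouring gene TREML4. Its 2 SIRT1 peaks had folds of 2.12 and 2.13 on 2 fragments each.

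TREM2, a receptor of tissue macrophages and microglia for lipids and apolipoproteins, lies at chr6:41158508-41163116 on the minus strand (gene ID 54209). A peak at chr6:41161187-41163155 reached its start with a fold of 16.2 on 52 fragments (38.8 to 68.2), and the summit lay 923 bp into the gene. H3K27ac covered 41.9% of the record. The highest peak in the window was over TREML2, a related receptor gene, with a fold of 22.7 on 66 fragments (51 to 84), 36618 bp from TREM2. The intervals of TREM2 and of TREML2 overlap. No SIRT1 peak lay in the TREM2 window.

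In order of the gene end fold, the genes were FCER1G, TYROBP, TREM1, FCGR1A, FCGRT, TREM2 and FCGR2A. The fragment intervals of TREM1 (69.7 to 107), FCGR1A (61.7 to 97.3) and FCGRT (44 to 75) overlap, as do those of FCGRT and TREM2 (38.8 to 68.2), so these neighbours are not separated by their counting error. FCER1G, TYROBP and FCGR2A each had an interval apart from those of the genes beside them in this order, except that TYROBP (106 to 151) and TREM1 met at 106 to 107. The median of the 7 was 26.8 against 19 for all 11354 genes with H3K27ac at an end, and 5 of the 7 were above that median. Fold depends on the local background as well as on the fragments, and the widths of the 7 peaks ran from 1260 bp at TREM1 to 14874 bp at TYROBP.

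**Figure D2:**
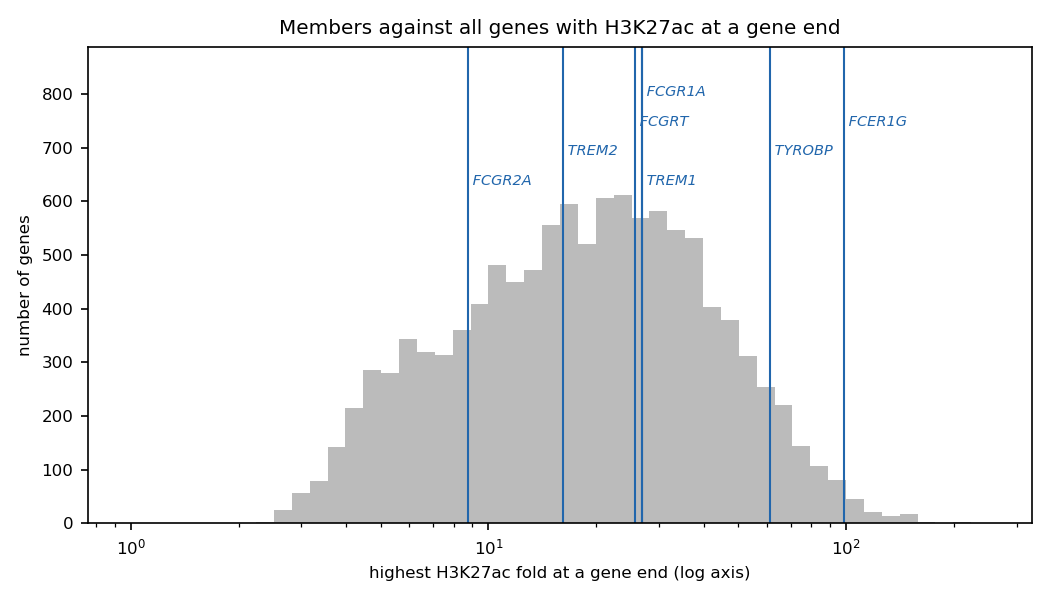
Highest H3K27ac fold at a gene end for the 7 members with one (vertical lines) over the number of all 11354 such genes in each fold class (grey bars, log axis). FCER1G stands in the upper tail at 98.8, TYROBP at 61.3, and FCGR2A at 8.77 lies below the median of 19.

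Over the 10 windows there were 79 distinct H3K27ac peaks with 5 to 258 fragments and folds of 2.98 to 98.8. The number per window was 17 at FCGR1A, 15 at FCER1G, 11 at FCGRT, 9 at TREM1, 8 at FCGR2A, 7 at TYROBP and at TREM2, 5 at FCGR2B and at FCGR3A and 0 at FCER1A, where the median gene had 3. Many of these peaks lay at other genes of the window, as described above. Of the 79, 17 overlapped the record of a member.

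The 21 SIRT1 peaks of the windows were all low. They rested on 2 fragments in 8 cases, 3 in 10 and 4 in 3, with folds of 2.12 to 3.53, and the highest −log10 q was 0.175. This is not particular to the members: 86.3% of all SIRT1 peaks had a −log10 q of 0, and the median fold was 2.78. None of the 21 overlapped an H3K27ac peak, and the median gap to the nearest one was 7096 bp. H3K27ac covered from 0% of the window at FCER1A to 28.8% at FCGR1A. The share of all SIRT1 peaks that overlap H3K27ac was not computed, so no avoidance can be read from this count. The number per window was 6 at FCER1A, 5 at TYROBP, 3 at FCGR2B and at FCER1G, 2 at TREM1, 1 at FCGR1A and at FCGR2A and 0 at FCGR3A, FCGRT and TREM2, where the median gene had 4. An interval such as 0.619 to 8.77 for 3 fragments covers the whole range of these values, so the SIRT1 peaks of the members cannot be ranked at this depth.

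**Figure D3:**
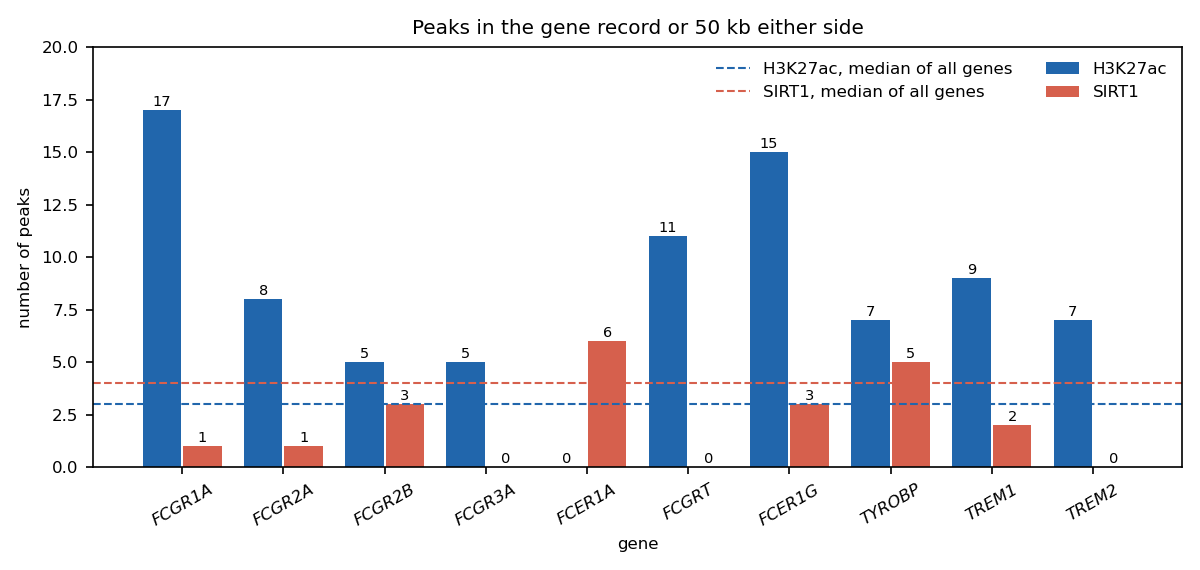
Number of H3K27ac peaks (blue) and SIRT1 peaks (red) in the record or 50 kb either side of each gene, with the median of all protein-coding genes as dashed lines. FCGR1A has 17 H3K27ac peaks and 1 SIRT1 peak, FCER1A has 0 and 6, TYROBP 7 and 5, and TREM2 7 and 0.

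The promoters of the acetylated members had few CpG dinucleotides. In the 250 bases before the start, FCGR1A had 1, TREM1 had 2, FCGR2A and TREM2 had 4 each, FCGRT and TYROBP had 5 each and FCER1G had 7. The median over 12561 listed starts with H3K27ac within 1 kb was 21, and over all 22199 it was 16. Starts with 5 or fewer numbered 5630, of which 18.4% were acetylated, and they made up 8.25% of all acetylated starts. Among the 7 acetylated members 6 were of this kind. The starts without H3K27ac of FCGR2B, FCGR3A and FCER1A had 0 to 5 CpG, so a low number was common to members with and without the mark.

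**Figure D4:**
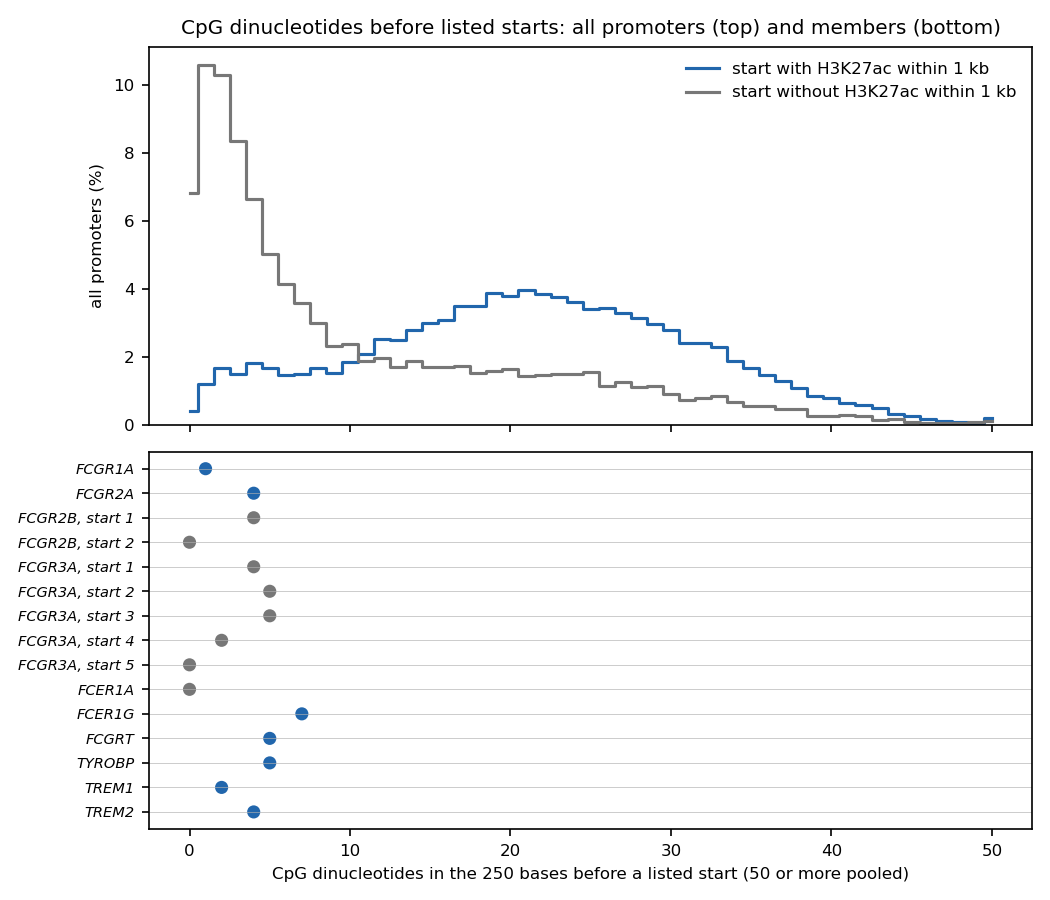
CpG dinucleotides in the 250 bases before listed starts, as the percentage of all starts with (blue) and without (grey) H3K27ac within 1 kb in the upper panel and for the 15 listed starts of the members in the lower panel. All member starts have 7 or fewer, whereas acetylated starts have a median of 21.

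Short sequence motifs of transcription factors known from myeloid cells, though not only from them, and the TATA box were then searched on both strands of these windows. They were GAGGAA for the PU.1 core, TTGCNNAA for C/EBP factors, TTCNNNGAA for the STAT element called GAS, TGANTCA for AP-1 and TATAAA for the TATA box. The 15 windows held 16 matches, and no match overlapped one of another motif. GAGGAA was found in 3 of the 7 acetylated members, namely FCGR1A, FCGR2A and TYROBP, and in 1 of the 3 others, FCGR2B. Of all promoter windows 23.7% held it, 23.5% with and 23.9% without H3K27ac. These shares are per window, and the 3 other members had 2 (FCGR2B), 5 (FCGR3A) and 1 (FCER1A). Of those windows only that of the second FCGR2B start held GAGGAA. A match is a description of the letters and does not show binding.

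FCGR1A and FCGR2A held the match at nearly the same place, beginning 46 and 45 bases before the start. It sits in a run of 20 identical bases, atttccttcctcttttctaa, which begins 52 and 51 bases before the starts. No other pair of members shared a run of more than 11 bases. TYROBP held GAGGAA or its reverse 230 and 10 bases before the start and FCGR2B, at its second start, 180 and 67 bases before. FCER1G, with the highest fold, held none of the 5 motifs.

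The GAS motif was in the windows of FCGR1A (93 bases before the start), TREM1 (192) and the second start of FCGR2B (141 and 106), against 5.92% of all promoters. FCGR1A is a classical target of interferon gamma through such an element. The C/EBP motif was in those of TREM1 (65) and TREM2 (100 and 11), against 7.5%. AP-1 matched at the first start of FCGR2B (72), against 5.36%, and TATAAA at FCGR2A (146) and at 1 start of FCGR3A (202), against 9%. These shares too are per promoter window, of which the members had 15, and no enrichment was tested.

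The genes around this family were described in 3 lists. Of 17 other Fc receptor genes, 6 had H3K27ac at a gene end, or 35.3% beside the 56.7% of all genes. Highest were TRIM21, the cytosolic antibody receptor, at 28.1, FCRLA at 25.6 and the IgM receptor FCMR at 16.1. FCRL1 to FCRL6, receptor-like genes of lymphocytes, had none, nor did MS4A2, the beta chain of the IgE receptor. SIRT1 lay at an end of TRIM21, with a fold of 2.94, and of CD247, the T cell receptor zeta chain, with 2.11.

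Among 18 TREM genes and genes of receptors or adaptors, most but not all of them linked to DAP12 or DAP10, 11 had the mark. This is 61.1%, near the 56.7% of all genes. HCST had a fold of 61.3 from the peak it shares with TYROBP, CD300LB 38.2 and PILRB 36.1. SIRT1 lay at an end of CD300LD, at 2.77.

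Of 30 genes that act downstream of ITAM and ITIM motifs, 29 had the mark, or 96.7% beside the 56.7% of all genes. The exchange factor VAV3 had a fold of 128, the kinase PRKCD 103 and the adaptor LAT2 87.8, while SYK itself had 25.9. PLCG2, a phospholipase of the same pathway, had no H3K27ac at either end. Its record and the 50 kb on either side held 13 H3K27ac peaks, where the median gene had 3. SIRT1 lay at an end of VAV3, with a fold of 2.58, and of MALT1, with 2.94. Together 46 of the 65 genes in the 3 lists had H3K27ac at an end, or 70.8% beside 56.7% of all genes. Their median fold was 28.3, against 19 for all genes with H3K27ac at an end. SIRT1 lay at an end of 5 of the 65, or 7.69% beside 10.8% of all genes. These lists were put together with earlier results of these data known, and no test compares them with other genes.

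The marker lists set FCER1A and FCGR3A beside the cells that are known for them. The mast cell and basophil list had H3K27ac at 0 of 12 gene ends and SIRT1 at 3, CPA3, HDC and CLC, with a fold of 2.94 each. In the NK or T cell list SIRT1 lay at an end of PRF1 (2.2), in the B cell list at PAX5 (3.67) and TNFRSF13C (2.2), and in the microglia list at P2RY12 and TMEM119 (2.2 each). In the monocyte and macrophage list SIRT1 lay at 0 of 12 gene ends. Beside the 10.8% of all genes with SIRT1 at an end, the shares were 25%, 8.33%, 16.7%, 16.7% and 0% in that order of lists, each resting on 3 or fewer genes.

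**Figure D5:**
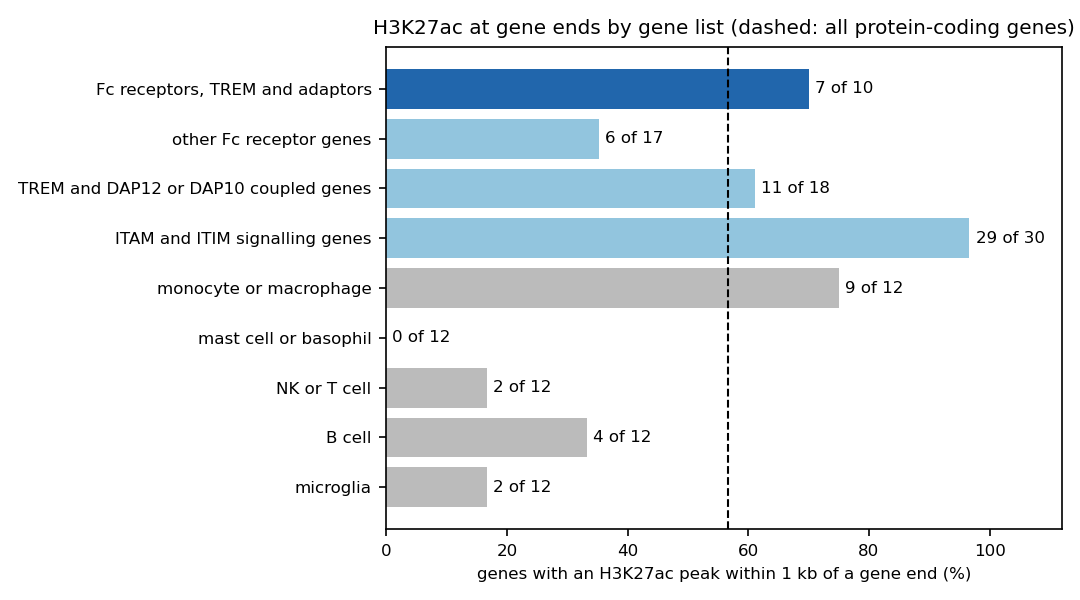
Percentage of genes with an H3K27ac peak within 1 kb of a gene end for the 10 members, the 3 related lists and the 5 marker lists, with the share of all protein-coding genes, 56.7%, as a dashed line. ITAM and ITIM signalling genes reach 29 of 30, the members 7 of 10 and the mast cell or basophil markers 0 of 12.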

How the data were processed

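ChIP-seq peaks of H3K27ac and SIRT1 in PMA-treated THP1 cells were used, from 1 library per antibody; an input sample was not analysed. The submitters' processing notes name MACS2, deepTools and the build hg38. The aligner, the control, tool versions and the placing of reads that fit several sites were not given in the sources used here. The deposited fold of each peak is a ratio of the summit to local background. The authors also deposited −log10 p and −log10 q per peak. Their deposited score equalled 10 times −log10 q for H3K27ac and 10 times −log10 p for SIRT1, without decimals. The summit offset is likewise as deposited by the authors.

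Summit fragments and background rates were solved for from fold, read as (fragments + 1)/(background + 1), and from p, read as the upper tail of a Poisson distribution. A single whole-number solution was found for 99.988% of H3K27ac and 99.991% of SIRT1 peaks, and for every peak of the members. The step was tested on simulated data. Library totals were not used here, so depth is given by the floors and fragment numbers. Fragment intervals are 95% exact Poisson intervals.

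Gene records, listed starts (15843 genes) and promoter sequences came from RefSeq tables of GRCh38.p14; the build named for the peaks is hg38, the same primary assembly. A gene end spans 1 kb before and after each limit of a record, and overlap meant at least 1 base. Exon and intron positions were not used. Counts on chromosomes 1 to 22, X and Y are set beside the share of all genes under the same rule, with no test.

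The members and the gene lists were chosen with earlier results of these data known. Named genes were the 10 members, the gene at or nearest to the highest H3K27ac peak of each window, the copies FCGR2C and FCGR3B, and from each list the 3 genes of highest fold and every gene with SIRT1 at an end. The FCGR1 pseudogenes, histone genes, tRNA genes, SYK, PLCG2, MS4A2, the FCRL genes and the markers without a peak were named after their values were seen. The distance to tRNA genes and the search for shared runs of bases were added after the data were seen. A few genes meeting this rule are left unreported. FCGR2C is not among the protein-coding records, so 17 of 18 other Fc receptor genes were counted. Alternatives were a −log10 q of at least 5, at least 50% of the peak inside the window, other window sizes, the gene start alone, at least 4 SIRT1 fragments and merging of peaks within 1 kb. Computations ran in Python 3.11.15 with pandas 2.3.3, numpy 2.4.6, matplotlib 3.10.9 and scipy 1.17.1.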

Additional observations from a re-analysis of the deposited data

How the results depend on the processing

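The members with H3K27ac at a gene end numbered 7 in every alternative run but 1. With at least 50% of the peak inside the gene end window there were 5: FCER1G and TYROBP dropped out, whose peaks of 5361 and 14874 bp are too wide for that share to fit inside. With a window of 10 kb either side 8 of 10 members had H3K27ac, and 9 in the other alternatives. In all, 42 of 61 alternative values stayed within 1.5 times the reported one and 19 did not.

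Counts of SIRT1 moved more. With a −log10 q of at least 5 no SIRT1 peak of the members was left, so the count was 0 at gene ends, 0 in windows and 0 peaks. That outcome was fixed beforehand, because the highest −log10 q among these peaks was 0.175. With at least 4 fragments at the summit it was 0 at gene ends, 2 members in the window and 3 peaks. For gene ends it was 2 within 2500 bp, and 0 at the gene start alone. The 10 kb window left SIRT1 in 3 members and on 6 peaks, and the 100 kb window had 45 peaks. The H3K27ac peaks, counted once per member, went from 84 to 26 with 10 kb and to 136 with 100 kb, as the windows were shorter or longer.

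Of the monocyte or macrophage markers, 5 were left with at least 50% of the peak inside. The mast cell or basophil count was 1 within 2500 bp and 1 at the start alone. For microglia it was 1 with a −log10 q of at least 5, 1 with at least 50% inside and 1 at the start alone. The cause of these last changes was not tested.

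No paired analysis was possible because there was 1 library per antibody and no replicate to leave out. The SIRT1 peaks of the members rest on 2 to 4 fragments, and at these numbers their order cannot be judged.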
